A study of Mus musculus with 24 samples.

Results

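The cytochrome P450 genes of families 1 to 3 encode the haem enzymes that oxidise drugs, plant compounds, carcinogens, steroids and fatty acids. They were taken here as every gene whose current symbol is Cyp followed by 1, 2 or 3, a subfamily letter and a number. The array held 82 probes for 53 such genes among 19053 genes with a probe. A probe was measured in a tissue when 3 or more of the tissue's 12 arrays gave it a detection p-value under 0.05, which left 36 of the genes in liver (of 10904 genes measured) and 28 in lung (of 12746). Both tissues shared 27, 9 were measured in liver only, Cyp2c65 in lung only, and 16 in neither. The 16 were Cyp1a1, Cyp2b19, Cyp2c38, Cyp2c40, Cyp2c55, Cyp2d34, Cyp2j5, Cyp2j6, Cyp2j8, Cyp2j11, Cyp2j12, Cyp2j13, Cyp2t4, Cyp3a16, Cyp3a41b and Cyp3a57, and those measured in liver only were Cyp2c29, Cyp2c54, Cyp2c68, Cyp2d12, Cyp2d13, Cyp2g1, Cyp2r1, Cyp2u1 and Cyp3a44.

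The arrays came from female BALB/c mice aged 22 weeks, 12 arrays of liver and 12 of lung. In each tissue there were 4 groups of 3 arrays: sham-injected mice on a control diet, sham-injected mice on a high-fat diet, mice injected with 4T1 cells under control diet, and mice injected with 4T1 cells under high-fat diet. 4T1 cells are a metastatic mammary tumour line of BALB/c origin, placed here in the mammary fat pads. Each mouse received its diet for 16 weeks before the injection and for the 14 days from injection to sampling. The labels do not say whether the 3 arrays of a group came from separate mice, so p-values measure the spread between these arrays, which may be technical. The tumour model rests on 1 cell line, and the series describes the mice as resistant to obesity.

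P450 enzymes of these families sit in the endoplasmic reticulum, receive electrons from the reductase Por and cytochrome b5, and are most abundant in hepatocytes, while a smaller set works in the club cells of the airways. Many are induced by ligands through 3 sensors: the aryl hydrocarbon receptor AhR for family 1, the constitutive androstane receptor CAR (Nr1i3) for Cyp2b and Cyp2c genes, and the pregnane X receptor PXR (Nr1i2) for Cyp3a genes. Inflammation and infection are known to lower many hepatic P450 transcripts in rodents. Because whole tissue was measured, fewer cells of a type and less RNA per cell cannot be told apart in any result given here.

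RefSeq promoter windows (build GRCm38.p6) were given for 45 of the 53 genes. The 5 below are shown because the diet and injection results turn on these Cyp2a and Cyp2b genes. Each is the 150 bases before the start on the plus strand of chromosome 7, at chr7:26307042-26307191 for Cyp2a4, chr7:26835189-26835338 for Cyp2a5, chr7:26173259-26173408 for Cyp2b9, chr7:25897508-25897657 for Cyp2b10 and chr7:26061345-26061494 for Cyp2b13. Capitals mark matches, on either strand, to TATAAA (the TATA box), TTGCNNAA (the binding sequence of C/EBP factors), AGGTCA (the core recognised by many nuclear receptors) or GCGTG (the core of the AhR response element).
Cyp2a4: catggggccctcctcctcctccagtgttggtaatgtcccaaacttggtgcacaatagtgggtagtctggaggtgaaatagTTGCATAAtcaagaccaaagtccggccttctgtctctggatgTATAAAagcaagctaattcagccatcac
Cyp2a5: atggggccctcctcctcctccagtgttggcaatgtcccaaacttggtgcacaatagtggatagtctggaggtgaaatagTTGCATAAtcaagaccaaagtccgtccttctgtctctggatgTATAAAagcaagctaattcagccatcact
Cyp2b9: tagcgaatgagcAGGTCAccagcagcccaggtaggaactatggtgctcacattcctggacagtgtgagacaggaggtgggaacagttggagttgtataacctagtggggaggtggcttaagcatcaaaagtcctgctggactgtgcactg
Cyp2b10: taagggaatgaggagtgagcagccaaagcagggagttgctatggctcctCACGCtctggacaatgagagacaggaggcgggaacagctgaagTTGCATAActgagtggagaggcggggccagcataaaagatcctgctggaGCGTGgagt
Cyp2b13: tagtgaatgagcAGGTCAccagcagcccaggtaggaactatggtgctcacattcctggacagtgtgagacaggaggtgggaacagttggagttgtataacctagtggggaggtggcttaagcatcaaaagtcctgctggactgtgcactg

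The windows of Cyp2a4 and Cyp2a5 matched at 146 of 149 aligned bases (98%), and those of Cyp2b9 and Cyp2b13 at 149 of 150 (99.3%), whereas Cyp2b9 and Cyp2b10 matched at 101 of 149 (67.8%). Cyp2a4 and Cyp2a5 shared a C/EBP match that began 70 and 71 bases before the start and a TATA box that began 28 and 29 bases before it. Cyp2b10 had a C/EBP match at 58 bases and none to TATAAA. Over windows of 250 bases before the start, both strands read, the C/EBP letters were found in 13 of 48 windows of these genes against 9.57% of 32536 windows of all genes, TATAAA in 21 against 12.3%, AGGTCA in 15 against 14% and GCGTG in 8 against 28.3%. A match is a description of the letters and shows no binding. Pairs as similar as Cyp2a4 with Cyp2a5 or Cyp2b9 with Cyp2b13 may share signal on the array, so their separate values are uncertain, as are those of neighbouring Cyp2c, Cyp2d and Cyp3a genes.

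The 53 genes fell into 15 subfamilies. Liver measured 9 of 13 Cyp2c genes, 7 of 8 Cyp2d, 4 of 5 Cyp2b, 4 of 7 Cyp3a, all 3 Cyp2a and 1 of 7 Cyp2j genes. Lung measured 7, 5, 4, 3, 3 and 1 of these. In family 1, Cyp1a1, the classical AhR target, was above background on no array of either tissue, while Cyp1a2, which oxidises caffeine and aromatic amines, and Cyp1b1, which oxidises polycyclic hydrocarbons and oestrogens, were measured in both. When all 24 arrays were normalized together, the sham arrays of liver lay above those of lung without overlap for 23 of the 27 shared genes. Lung lay above liver without overlap for the other 4. These were Cyp1b1, with a median log2 intensity of 7.53 in lung against 5.85 in liver, Cyp2b10 with 13.87 against 8.22, Cyp2f2 with 15.85 against 13.39 and Cyp2s1 with 12.14 against 7.00. Cyp2f2 is the naphthalene-oxidising enzyme of mouse club cells. The share of all genes whose liver and lung sham arrays did not overlap was not counted. These counts therefore describe the members and show nothing particular to them.

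Sham and 4T1 arrays differed as a whole. In liver, 34.0 to 36.1% of probes were above background in sham mice against 40.4 to 41.5% after 4T1 injection, and in lung 51.0 to 52.4% against 42.97 to 44.8%. No slide is named, so array batch and injection cannot be told apart, while the diet comparisons lie within one injection. Intensities were normalized so that every array of a tissue had the same distribution, and a change is therefore relative to the other transcripts. Log2 intensities and log2 changes are used throughout, called means an adjusted p under 0.05 (limma, Benjamini-Hochberg over all genes of the tissue), and errors of changes are standard errors.

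**Figure D1:**
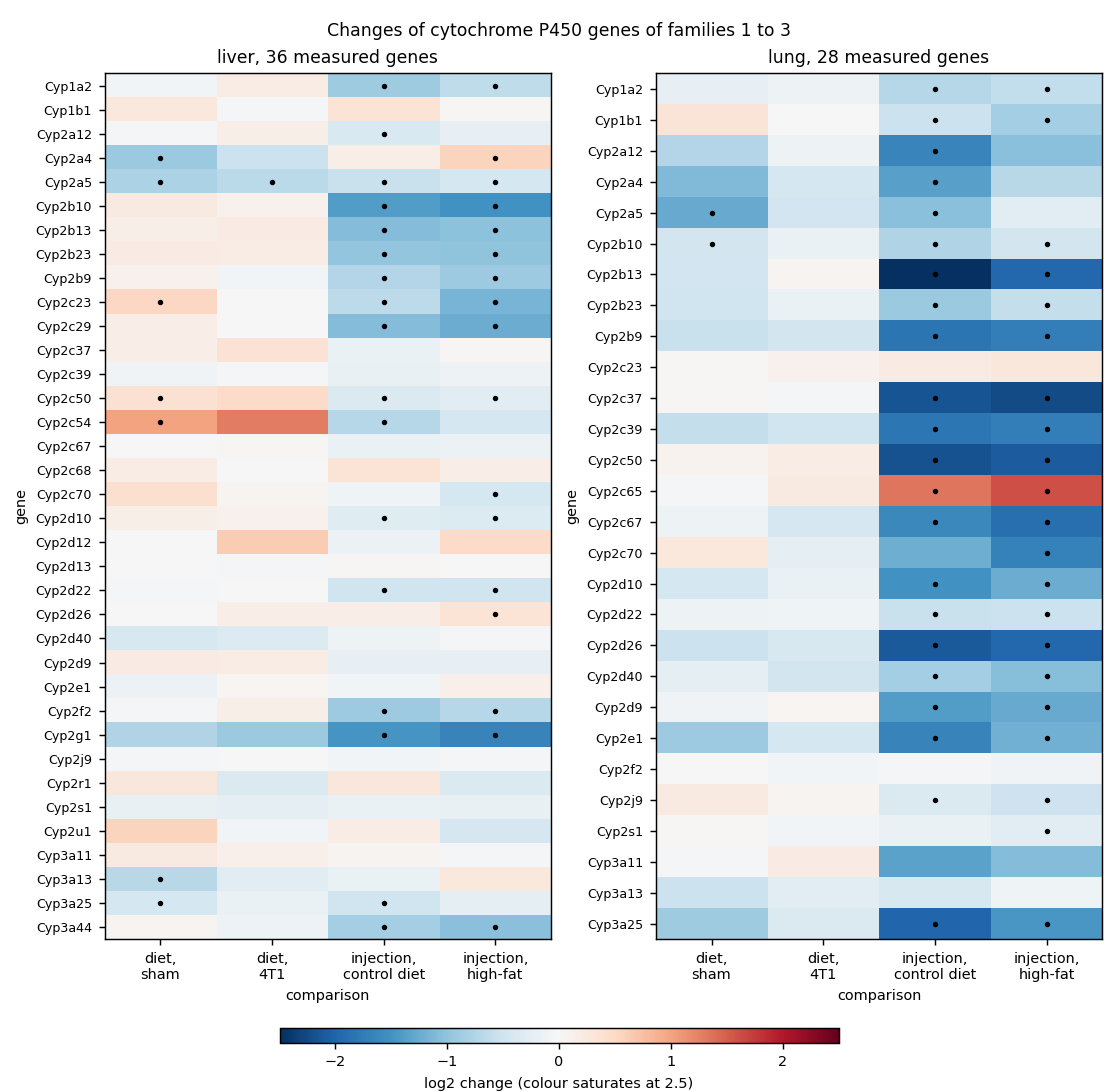
Log2 change of each measured gene (rows) in the diet comparisons (high-fat minus control) and injection comparisons (4T1 minus sham) of liver (left, 36 genes) and lung (right, 28 genes), with blue for lower, red for higher and a dot for a call. The injection columns hold most calls, 17 and 17 in liver and 22 and 21 in lung, and nearly all called genes there are lower.

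The series set out to compare the diets within each injection, and in sham liver the genes called lower under high-fat diet were 2 of 3 Cyp2a and 2 of 4 Cyp3a genes, and those called higher were 3 of 9 Cyp2c genes. Of the 36 genes 3 rose and 4 fell, a share of 19.4% against 11.2% of all 10904 genes (6.03% higher, 5.14% lower). Cyp2a5, the coumarin 7-hydroxylase of mouse liver, read 14.97, 14.97 and 14.94 under control diet and 14.11, 14.17 and 14.23 under high-fat diet. All 3 high-fat arrays were below all 3 control arrays, and the log2 change was -0.79 ± 0.10 (1.73-fold lower, adjusted p = 0.00066). Its near copy Cyp2a4, a testosterone 15α-hydroxylase, read 11.32, 11.22 and 10.87 against 10.05, 10.21 and 10.35. Again the groups did not overlap, with a change of -0.93 ± 0.19 (adjusted p = 0.013). The other 4 measured probes of Cyp2a5 changed by -1.04 to -1.52 in the same comparison.

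Cyp3a13 fell by 0.70 ± 0.13 (adjusted p = 0.0063) and Cyp3a25 fell by 0.43 ± 0.09 (adjusted p = 0.014) on the log2 scale. Both belong to the PXR-responsive subfamily of steroid and drug oxidases. With the 2 sham groups fitted alone neither was called (adjusted p = 0.085 and 0.11), and with array weights Cyp3a25 was not (adjusted p = 0.061). Cyp3a11, the most studied mouse member of that subfamily, changed by 0.22 ± 0.25 and its groups overlapped. The genes that rose were Cyp2c54, Cyp2c23 and Cyp2c50, whose enzymes oxidise polyunsaturated fatty acids. Cyp2c54 read 7.92, 8.51 and 7.57 under control diet and 8.63, 9.04 and 9.34 under high-fat diet, a change of 1.00 ± 0.25 (2.00-fold higher, adjusted p = 0.029). Without overlap, but only 0.12 apart at the nearest arrays, this call was lost when either of control arrays 1 and 3 or high-fat arrays 2 and 3 was left out, with adjusted p up to 0.082. Cyp2c23 rose by 0.52 ± 0.11 (adjusted p = 0.013) and Cyp2c50 by 0.38 ± 0.10 (adjusted p = 0.028). With the sham groups alone Cyp2c23, Cyp2c50 and Cyp2c54 were not called (adjusted p = 0.13, 0.16 and 0.14), nor were Cyp2c50 and Cyp2c54 with array weights (adjusted p = 0.12 and 0.11). The Cyp2c50 call was lost without control array 1 or 3 or any high-fat array, with adjusted p up to 0.078, and median scaling took its change to 0.18. Under that scaling 1 member rose and 6 fell, and the share of all called genes that were higher went from 54 to 20.7%.

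In the livers of 4T1-injected mice the diet changed 1 of the 36 genes, 2.78% against 0.303% of all genes (0.165% lower). Cyp2a5 read 14.45, 14.39 and 14.37 under control diet and 13.57, 13.97 and 13.64 under high-fat diet. It was again lower on every high-fat array, by 0.68 ± 0.10 on the log2 scale (adjusted p = 0.020). This call was lost without any of the 3 control-diet arrays or without high-fat array 1 or 3, with adjusted p up to 0.13, and no member was called with the replicate number as a block. Cyp2a4 changed by -0.54 ± 0.19 (adjusted p = 0.39) and Cyp2c54 by 1.27 ± 0.25 (adjusted p = 0.073), neither called, although the groups of both were apart. For none of the 36 genes was the diet effect called different between 4T1 and sham livers (limma's interaction term, 0.945% of all genes called, 0.486% higher and 0.459% lower, 2 members at an unadjusted p under 0.05). The interaction was 0.11 ± 0.14 for Cyp2a5 and 0.39 ± 0.28 for Cyp2a4.

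**Figure D2:**
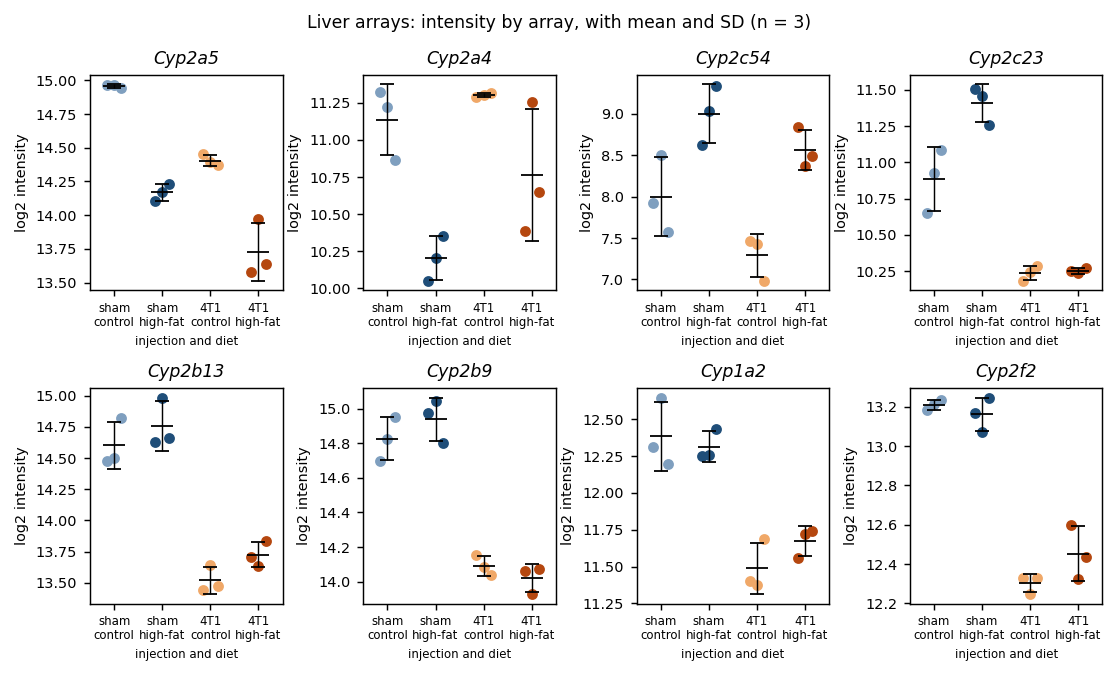
Log2 intensity of 8 genes on each liver array by injection and diet, with mean and SD of 3 arrays in black. Cyp2a5 is lower on high-fat arrays within each injection, Cyp2c54 is higher on sham high-fat arrays, and Cyp2c23, Cyp2b13, Cyp2b9, Cyp1a2 and Cyp2f2 are lower on 4T1 than on sham arrays.

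After 4T1 injection, liver transcripts of these families were mostly lower relative to the other transcripts of the liver. Under control diet 17 of 36 genes fell and none rose, 47.2% called against 43.3% of all genes (20.5% higher, 22.8% lower). Among these genes 19 had an unadjusted p under 0.05, and their median log2 change was -0.19 against -0.03 over all genes. Under high-fat diet 15 fell and 2 rose, again 47.2%, against 48.8% of all genes (21% higher, 27.7% lower), with a median of -0.24 against -0.06. The lower calls of the diets shared 14 genes, which were 82.4% of those under control diet and 93.3% of those under high-fat diet. The total share called was thus close to that of all genes, and the lower calls made up a larger share of these genes than of all genes.

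The direction of these liver changes depends on the scaling. With each array scaled to its median in place of quantile normalization, the median change of all genes moved from -0.03 to 0.66 under control diet and from -0.06 to 0.73 under high-fat diet. The members then split into 15 higher and 5 lower under control diet and 18 higher and 6 lower under high-fat diet, and the share of all called genes that were higher went from 47.3 to 97.3% and from 43.1 to 98.2%. Under median scaling the 17 genes called lower under control diet had changes of at most 0.27 (Cyp2d10), under the median of all genes, and the 15 of the high-fat diet at most 0.39 (Cyp2d10). These genes were chosen by their lower calls on the same arrays, so their place under that median is no separate support. Cyp2b10, Cyp2b13, Cyp2g1 and Cyp3a44 were called lower on both diets under both scalings. Cyp3a44 was measured through sham arrays alone, the group in which it was higher, so its lower calls are no separate support.

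**Figure D3:**
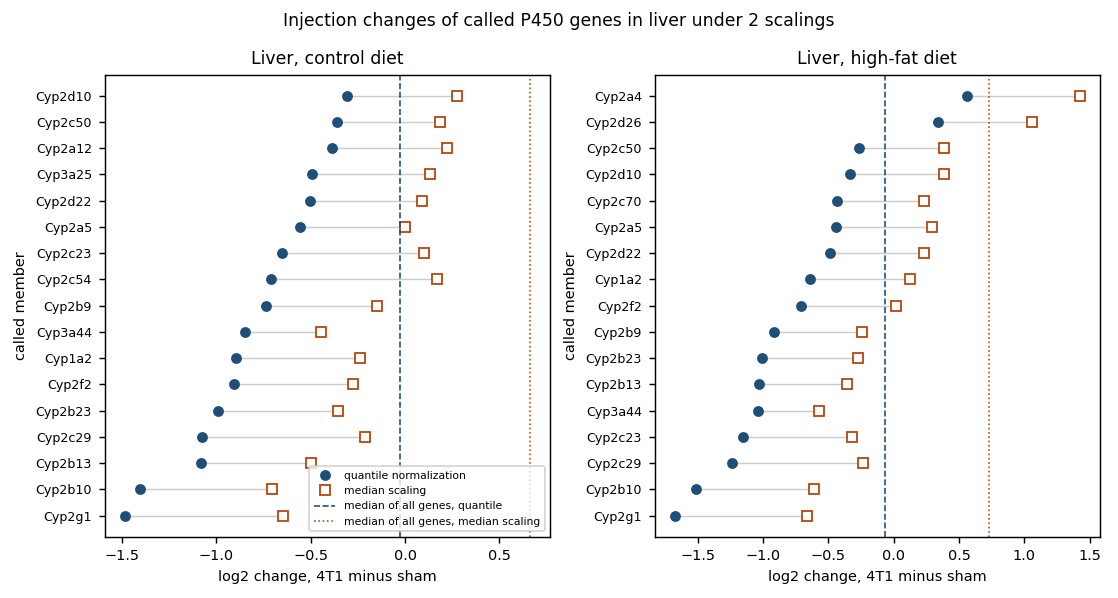
Log2 change (4T1 minus sham) in liver of each gene called under control diet (left) or the high-fat diet (right) under quantile normalization (filled circles) and median scaling (open squares), with the median of all genes under each as a dashed or dotted line. Median scaling moves every gene to the right, and every gene called lower stays left of the matching median line. The genes were chosen by calls on the same arrays, so this is a description and no separate test.

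The Cyp2b genes, the main CAR-responsive subfamily, fell as a group of 4 on both diets. Cyp2b13 read 14.48, 14.50 and 14.82 in sham and 13.44, 13.64 and 13.47 in 4T1 livers under control diet. All 4T1 arrays lay below all sham arrays, with a change of -1.08 ± 0.12 (2.12-fold lower, adjusted p = 9.0e-05), and under high-fat diet the change was -1.03 ± 0.12. Cyp2b9, which like Cyp2b13 is more abundant in female than in male mouse liver, read 14.70, 14.83 and 14.95 against 14.16, 14.08 and 14.04 and fell by 0.73 ± 0.09 on the log2 scale. Its fall under high-fat diet was 0.92 ± 0.09. Cyp2b10, the usual reporter of CAR activity, read 6.91, 7.09 and 7.58 in sham and 5.60, 6.26 and 5.51 in 4T1 livers, a change of -1.40 ± 0.24 under control diet, and -1.52 ± 0.24 under high-fat diet. It was dim in liver, and in the deposited log2 values, which carry no background correction, its changes were -0.53 and -0.62. Cyp2b23 changed by -0.99 ± 0.11 and -1.01 ± 0.11.

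In family 1, Cyp1a2 read 12.31, 12.65 and 12.19 in sham and 11.40, 11.38 and 11.69 in 4T1 livers under control diet. The groups were separate and the change was -0.90 ± 0.13 (1.86-fold lower, adjusted p = 0.00036), with -0.64 ± 0.13 under high-fat diet. Under median scaling these became -0.24 and 0.12 and were not called. Cyp1b1 under control diet was above background on none of the sham arrays and on all 3 of the 4T1 arrays, at 4.97, 5.35 and 5.15 against 5.49, 5.45 and 5.53, and was not called (adjusted p = 0.080).

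Cyp2f2, better known from the airways, was also measured in liver, where it read 13.18, 13.21 and 13.24 in sham and 12.33, 12.25 and 12.33 in 4T1 mice under control diet. The fall of 0.91 ± 0.08 on the log2 scale had an adjusted p of 2.0e-05, and under high-fat diet the fall was 0.71 ± 0.08. Cyp2g1, an enzyme described chiefly in olfactory mucosa, gave the lowest changes in liver, -1.48 ± 0.23 and -1.68 ± 0.23. It read 8.99, 9.72 and 9.10 against 8.09, 7.41 and 7.87 under control diet and 8.91, 8.33 and 8.33 against 6.84, 6.98 and 6.73 under high-fat diet. In none of these did sham and 4T1 arrays overlap. On the deposited log2 values the Cyp2g1 change under high-fat diet was -0.97.

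Within Cyp2c, Cyp2c29 changed by -1.08 ± 0.15 and -1.24 ± 0.15, and Cyp2c23 by -0.65 ± 0.11 and -1.15 ± 0.11. Cyp2c29 is a CAR-inducible arachidonic acid epoxygenase. Its deposited log2 values changed by -0.54 and -0.63. Cyp2c54 fell under control diet (-0.71 ± 0.25, adjusted p = 0.041), a call lost in 7 of 12 fits without 1 array, with adjusted p up to 0.15, and its change under high-fat diet was -0.44 ± 0.25, not called. Cyp2c70, which makes the muricholic acids of mouse bile, fell by 0.44 ± 0.14 under high-fat diet (adjusted p = 0.023), a call lost without sham array 1 or 3 or any 4T1 array, with adjusted p up to 0.061. Cyp2c50 changed by -0.36 ± 0.10 and -0.26 ± 0.10, but its other 2 measured probes changed by 0.35 and 0.17 under control diet and by 0.56 and 0.35 under high-fat diet, so the probes of this gene disagree. The high-fat call of Cyp2c50 was lost in 8 of 12 fits without 1 array, with adjusted p up to 0.10.

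In the Cyp3a and Cyp2a subfamilies, Cyp3a44, whose transcript is female-predominant, was above background on no 4T1 array and was at least 1.72-fold lower under control diet (adjusted p = 0.028) and at least 1.81-fold lower under high-fat diet (adjusted p = 0.0093). The first of these calls was lost without sham array 2 or 3 or any of the 3 arrays of 4T1 mice, with adjusted p up to 0.095. On the deposited log2 values the Cyp3a44 changes were -0.25 and -0.30. Its probe passed the detection filter through sham arrays alone. Cyp3a25 fell under control diet (-0.49 ± 0.09), as did Cyp2a12 (-0.39 ± 0.08). Cyp2a5 fell by 0.55 ± 0.10 and 0.44 ± 0.10, although 1 of its other probes changed by 0.14 under high-fat diet. Cyp2a4, in contrast, read 10.05, 10.21 and 10.35 in sham and 10.39, 11.26 and 10.65 in 4T1 livers under high-fat diet and rose by 0.56 ± 0.19 (adjusted p = 0.034). The nearest arrays were 0.04 apart, and the call was lost without sham array 1 or 2 or 4T1 array 2, with adjusted p up to 0.11.

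Cyp2d10 fell by 0.31 ± 0.08 and 0.33 ± 0.08. Cyp2d22 changed by -0.50 ± 0.08 and -0.49 ± 0.08, while its other measured probe changed by 0.49 and 0.52, and Cyp2d26 rose by 0.34 ± 0.13 under high-fat diet while its other probes changed by -0.46 and -0.59. The Cyp2d26 call was lost in 8 of 12 fits without 1 array, with adjusted p up to 0.13. Cyp2e1, the ethanol-inducible enzyme, stood near the top of the intensity scale in liver, at 15.37 to 15.79, and whether this limits its changes was not tested. It was not called in any liver comparison. Cyp3a11 was not called in liver either, with changes of 0.07 ± 0.25 and -0.03 ± 0.25. The other genes with no call in any liver comparison were Cyp1b1, Cyp2c37, Cyp2c39, Cyp2c67, Cyp2c68, Cyp2d9, Cyp2d12, Cyp2d13, Cyp2d40, Cyp2j9, Cyp2r1, Cyp2s1 and Cyp2u1. Their diet changes lay between -0.40 (Cyp2d40) and 0.63 (Cyp2d12), and their injection changes between -0.43 (Cyp2u1) and 0.48 (Cyp2d12).

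The genes around the P450 system were counted over lists of known function. Over all genes of the liver, 20.5% were called higher and 22.8% lower under control diet, and 21% and 27.7% under high-fat diet. Counts near these shares show nothing particular to a list. Of the 7 measured sensors and partners 4 fell under control diet and 3 fell and 1 rose under high-fat diet, with CAR (Nr1i3) at -0.77 ± 0.10 and -0.39 ± 0.10. Of 4 measured AhR targets outside the P450 families all 4 fell on both diets, among them the quinone reductase Nqo1 (-0.82 and -1.03) and the glutathione transferase Gsta1 (-0.92 and -0.90), and the list medians were -0.72 and -0.71 against -0.03 and -0.06 over all genes. Of 9 CAR and PXR targets 7 fell and 1 rose under control diet and 4 fell under high-fat diet, led by the anion carrier Slco1a4 (-1.11 and -1.003). Of 11 genes of haem synthesis and breakdown 4 rose and 2 fell under control diet and 3 rose and 2 fell under high-fat diet, with list medians of -0.0017 and 0.10. The highest change among them was that of the haem oxygenase Hmox1, which rose by 0.72 and 1.11. Of 16 acute phase genes 12 rose whichever the diet, with none lower, and all 13 measured neutrophil genes rose, with list medians of 6.88 and 7.30. The 21 hepatocyte secreted protein genes averaged 13.8 to 14.0 on sham and 14.1 to 14.2 on 4T1 liver arrays, 10 and 12 of them rising and none falling. Of 10 pericentral hepatocyte genes 2 rose and 1 fell under control diet, and 2 rose and 2 fell under high-fat diet. Macrophage and Kupffer cell genes rose (8 and 7 of 10), as did 4 and 5 of 9 fibroblast and smooth muscle genes, of which 2 and 1 fell, and 3 and 4 of 12 endothelial genes, of which none and 3 fell. Of 8 periportal genes 4 rose and 1 fell under control diet, and 1 rose and 1 fell under high-fat diet. Of 10 liver-enriched transcription factors 2 rose and 3 fell, then 3 and 3, and of 4 genes of the electron donor list 1 rose and 1 fell, then 2 and 2. The part of these lists in the P450 changes was not tested.

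For the diet in sham liver, 6.03% of all genes were called higher and 5.14% lower. Of 5 clock-output factors 3 fell, among them Dbp (-1.36 ± 0.15) and Tef (-1.33 ± 0.21), and 1 rose (Nr1d1, 0.60). Of 11 haem genes 1 rose and 1 fell, the latter Alas1, the first enzyme of haem synthesis (-1.35 ± 0.14). Of 7 sensors and partners 2 fell, CAR by 0.36 ± 0.10, and of 9 CAR and PXR targets 1 rose and 3 fell. Of 10 liver-enriched factors 2 rose and 2 fell, with Cebpb at -0.93 ± 0.11. Bcl6, a repressor with sex-dependent actions in mouse liver, rose by 1.86 ± 0.18, and Cux2, a factor of female mouse liver, fell by 1.37 ± 0.24. Their part in the Cyp2a and Cyp2c changes was not tested. The 21 hepatocyte secreted protein genes averaged 13.81 to 13.98 on control-diet and 13.85 to 13.93 on high-fat arrays.

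In sham lung 2 of 28 genes fell under high-fat diet and none rose, 7.14% against 1.67% of all 12746 genes (0.965% higher, 0.706% lower). Cyp2a5 read 13.27, 13.19 and 13.17 under control diet and 11.70, 12.22 and 11.95 under high-fat diet. Every high-fat array was lower, and the change of -1.25 ± 0.12 (2.38-fold lower) had an adjusted p of 0.0027. Its other 4 probes changed by -1.14 to -1.65. Cyp2b10 read 14.25, 14.24 and 14.14 against 13.65, 13.79 and 13.83. It fell by 0.46 ± 0.09 (adjusted p = 0.033), and the call was lost when any 1 of the 6 sham arrays was left out, with adjusted p up to 0.12, and with the mean of its probes (adjusted p = 0.13). Cyp2a4 changed by -1.11 ± 0.27 and was not called (adjusted p = 0.075), although its groups, at 6.99, 6.83 and 7.34 against 5.68, 6.22 and 5.92, did not overlap. In the same comparison 6 of 13 neutrophil genes rose, and the 18 hepatocyte secreted protein genes averaged 10.14 to 10.51 on control-diet and 9.59 to 10.29 on high-fat arrays. With that average as a covariate the changes of Cyp2a5 and Cyp2b10 were -1.25 and -0.46, and the adjusted p of Cyp2b10 was 0.055. The part of the neutrophil genes was not tested.

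In the lungs of 4T1-injected mice no gene was called for diet by limma, neither among these 28 (1 at an unadjusted p under 0.05) nor among all 12746 (0% called, 1436 at an unadjusted p under 0.05). Cyp2a5 read 12.19, 12.14 and 12.15 under control diet and 11.65, 11.89 and 11.50 under high-fat diet, a change of -0.48 ± 0.12 (adjusted p = 0.24). The high-fat arrays were again all lower. The Cyp2a5 interaction in lung was 0.77 ± 0.18 with an unadjusted p of 0.0012 and an adjusted p of 0.15, so a difference in the diet effect between sham and 4T1 lungs was not called (0.0863% of all genes were, 0.0157% higher and 0.0706% lower, and 3 of these genes had an unadjusted p under 0.05). Across both tissues and both injections, Cyp2a5 was thus lower on every high-fat array than on every control-diet array of the same tissue and injection.

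**Figure D4:**
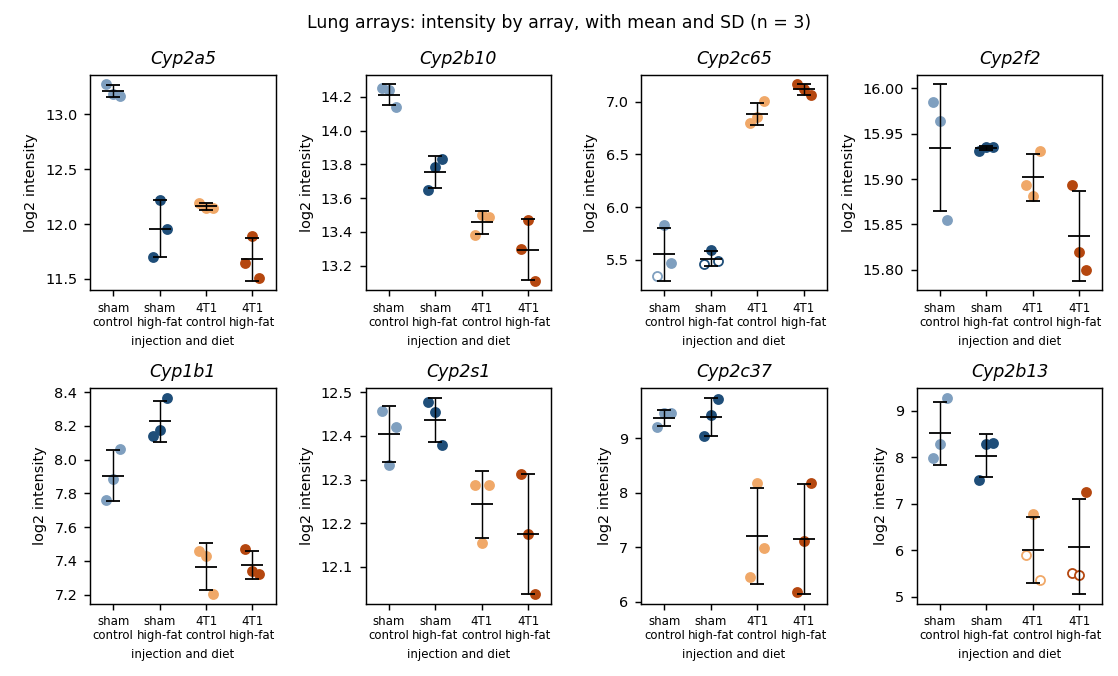
Log2 intensity of 8 genes on each lung array by injection and diet, with mean and SD of 3 arrays in black and open circles for arrays on which the gene's probe was not above background. Cyp2a5 and Cyp2b10 are highest on sham control-diet arrays, Cyp2c65 is higher and Cyp1b1 lower on all 4T1 arrays, and Cyp2f2 stays between 15.8 and 16.0.

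After 4T1 injection most of these genes were lower in lung. Under control diet 21 of 28 fell and 1 rose, 78.6% called against 52.8% of all genes (20.6% higher, 32.2% lower), with a median change of -1.28 against -0.09. Under high-fat diet 20 fell and 1 rose, 75% against 53.9% (22.6% higher, 31.3% lower), with a median of -1.06 against -0.08. The diets shared 18 of the lower calls, 85.7% and 90% of each list. Among these 18 the probes used for Cyp1a2 and Cyp2d9 were above background on no 4T1 lung array. Both were thus measured through sham arrays alone, and their lower calls are no separate support. Median scaling left 1 higher and 26 lower on each diet while the median of all genes went to -0.50 and -0.48.

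Of the 27 genes measured in both tissues, 23 had a higher sham intensity in liver than in lung. Of these 23 genes, 19 fell in lung under control diet and 17 under high-fat diet, with median changes of -1.40 and -1.20. Of the 4 genes with a higher sham intensity in lung, 2 fell under control diet and 3 under high-fat diet, with median changes of -0.35 and -0.36. Cyp2c37, a hepatic fatty acid oxidase, read 9.20, 9.46 and 9.46 in sham and 6.46, 8.18 and 6.99 in 4T1 lungs under control diet. Under high-fat diet it read 9.03, 9.43 and 9.72 against 6.17, 7.11 and 8.18. The groups were apart on both diets, with changes of -2.16 ± 0.49 and -2.24 ± 0.49. Cyp2b13 read 7.98, 8.29 and 9.28 against 5.90, 6.78 and 5.36 under control diet, a change of -2.51 ± 0.53, and was above background on 1 of 3 arrays in each 4T1 group.

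Cyp2c50 (-2.17 ± 0.45 and -2.07 ± 0.45), Cyp2d26 (-2.11 ± 0.55 and -1.96 ± 0.55), Cyp3a25 (-1.98 ± 0.43 and -1.46 ± 0.43) and Cyp2b9 (-1.83 ± 0.50 and -1.72 ± 0.50) followed. Cyp2d26 and Cyp3a25 were above background on 1 of the 3 arrays of each 4T1 group. Cyp2e1 read 12.46, 12.65 and 12.77 in sham and 11.08, 11.39 and 10.42 in 4T1 lungs under control diet, a change of -1.66 ± 0.28, with -1.20 ± 0.28 under high-fat diet. Under high-fat diet Cyp2c39 was at least 1.99-fold, Cyp2c67 at least 1.92-fold and Cyp2d40 at least 1.65-fold lower, none being above background on a 4T1 array there. Cyp2d9, a male-predominant steroid hydroxylase in mouse liver, was at least 1.57-fold lower under control diet and at least 1.52-fold lower under high-fat diet. Its probe passed the detection filter through sham arrays alone.

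Hepatocyte transcripts moved with this group. The 18 measured hepatocyte secreted protein genes averaged 10.18, 10.14 and 10.51 on the sham control-diet arrays of lung and 9.08, 10.07 and 9.04 on the 4T1 control-diet arrays. Under high-fat diet they averaged 9.59, 10.09 and 10.29 in sham and 8.45, 9.07 and 9.63 in 4T1 lungs. The 4T1 arrays with the highest averages, array 2 of the control diet and array 3 of the high-fat diet, were also those with the highest Cyp2c37, Cyp2c50, Cyp2b13, Cyp2d26 and Cyp3a11. Of the 18 genes 11 fell under control diet and 9 under high-fat diet, against 32.2% and 31.3% of all genes, and none rose. With the list's average as a covariate, 18 of the 22 control-diet calls and 12 of the 21 high-fat calls were kept. The change of Cyp2c37 then became -0.93 and -0.91, that of Cyp2d26 -0.65 and -0.40, and that of Cyp3a25 -0.87 and -0.26. How hepatocyte transcripts come to be in lung RNA was not tested.

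**Figure D5:**
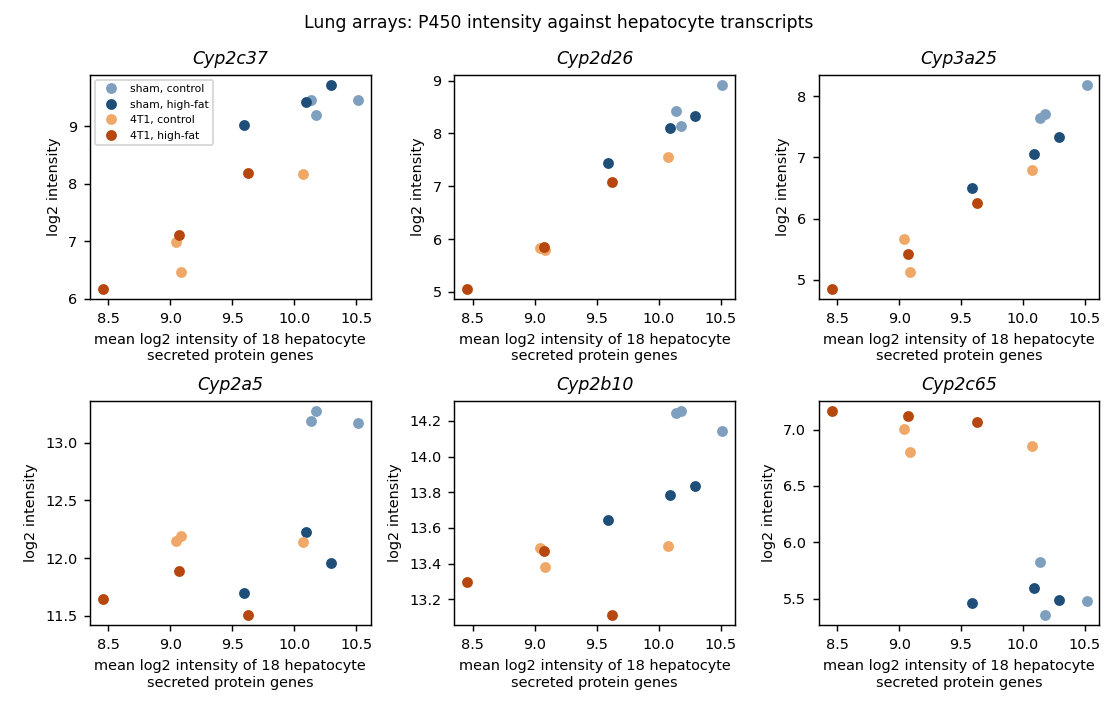
Log2 intensity of 6 genes on the 12 lung arrays (y axis) against the mean log2 intensity of 18 hepatocyte secreted protein genes on the same array (x axis), coloured by group. Cyp2c37, Cyp2d26 and Cyp3a25 are lowest on the arrays with the lowest hepatocyte mean, while Cyp2c65 is higher on all 4T1 arrays, and Cyp2a5 and Cyp2b10 are highest on the sham control-diet arrays, and some of their other groups overlap.

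Cyp2b10, whose sham intensity was higher in lung than in liver, read 14.25, 14.24 and 14.14 in sham and 13.38, 13.50 and 13.49 in 4T1 lungs under control diet. It fell by 0.76 ± 0.09 there and by 0.46 ± 0.09 under high-fat diet, and with the hepatocyte covariate the changes were -0.77 and -0.47. Cyp2a5 fell under control diet by 1.05 ± 0.12 (2.07-fold, adjusted p = 5.5e-05), at 12.19, 12.14 and 12.15 in 4T1 lungs, and by 1.04 with the covariate. Under high-fat diet its change was -0.28 ± 0.12, its groups overlapped and it was not called (adjusted p = 0.082). Cyp2a4 changed by -1.36 ± 0.27 under control diet, where 1 of 3 of the 4T1 arrays was above background, and by -0.82 with the covariate. Cyp1b1 read 7.76, 7.89 and 8.06 against 7.46, 7.43 and 7.21 under control diet and 8.14, 8.18 and 8.37 against 7.47, 7.34 and 7.32 under high-fat diet. The 4T1 arrays were lower throughout, by 0.54 ± 0.10 and 0.85 ± 0.10.

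Cyp2f2 was close to the top of the scale on all lung arrays, at 15.80 to 15.98, and was not called (changes of -0.03 ± 0.05 and -0.10 ± 0.05). Of the 9 measured club and airway genes, 6 fell and 1 rose under control diet and 5 fell and 1 rose under high-fat diet. Among all genes 32.2% fell and 20.6% rose, then 31.3% and 22.6%. The average of the 9 genes ranged from 11.77 to 11.88 in sham lungs and from 11.29 to 11.65 after 4T1 injection. The part of these cells in the fall of Cyp2b10, Cyp2a5 and Cyp1b1 was not tested. Cyp2s1, an enzyme of epithelia, fell under high-fat diet by 0.26 ± 0.08 (adjusted p = 0.014), a call lost without 4T1 array 3 (adjusted p = 0.052). The probe of Cyp1a2 was above background on 2 of 3 sham arrays under control diet, on 3 of 3 under high-fat diet and on no 4T1 lung array, reading 5.48, 6.29 and 6.20 against 5.49, 5.44 and 4.92 under control diet, and these groups overlapped. Its calls (adjusted p = 0.019 and 0.032) were lost in 3 and 4 of 12 fits without 1 array, with adjusted p up to 0.10. Cyp2b23 (-0.94 and -0.60), Cyp2d22 (-0.56 and -0.54) and Cyp2j9 (-0.35 and -0.51) fell on both diets. No lung call was made for Cyp2c23, Cyp3a13 or Cyp3a11, and Cyp3a11 changed by -1.34 ± 0.53 (adjusted p = 0.052) and -1.09 ± 0.53.

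Cyp2c65, described chiefly in mouse intestine, was the only gene of the 28 that rose in lung. It read 5.35, 5.83 and 5.47 in sham and 6.80, 6.85 and 7.00 in 4T1 lungs under control diet. Under high-fat diet it read 5.46, 5.59 and 5.49 against 7.17, 7.12 and 7.07. The groups were far apart, with changes of 1.33 ± 0.11 (2.52-fold, adjusted p = 2.8e-06) and 1.61 ± 0.11 (3.04-fold, adjusted p = 5.8e-07), and 2 of 3 and 1 of 3 sham arrays were above background. On the deposited log2 values the changes were 0.49 and 0.61. With the hepatocyte covariate they were 1.28 and 1.55. The array held 4 probes for Cyp2c65, and those not used here were not measured in lung, so the rise rests on 1 probe.

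Of the 22 calls under control diet 16, and of the 21 under high-fat diet 15, differed by more than 1.5 times on the deposited log2 values, where background signal is left in. The call of Cyp2a12 (-1.66 ± 0.48, control diet) was lost without sham array 3 or 4T1 array 1, that of Cyp2d40 under control diet without sham array 2 or 3 or 4T1 array 1 or 3, and those of Cyp2c70 and Cyp2d10 under high-fat diet without sham array 2 or 3 or 4T1 array 1 or 2. The high-fat call of Cyp3a25 was lost without sham array 3 or 4T1 array 1. Adjusted p in these fits reached 0.13.

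Over all genes of the lung, 20.6% were called higher and 32.2% lower under control diet, and 22.6% and 31.3% under high-fat diet. Counts near these shares show nothing particular to a list. Among the partner lists in lung, all 4 measured genes of the electron donor list fell on both diets, with list medians of -0.38 and -0.34. The lowest was Pgrmc1, a haem-binding protein counted in that list, at -1.14 ± 0.17 and -1.50 ± 0.17. Of 8 CAR and PXR targets 6 fell and 1 rose under control diet and 6 fell under high-fat diet, with the retinal dehydrogenase Aldh1a1 at -1.23 and -1.25. Of 11 haem genes 2 rose and 2 fell under control diet and 3 rose and 3 fell under high-fat diet, with list medians of -0.11 and -0.12. Among them Alas1 fell by 0.47 and 0.38 and Hmox1 rose by 1.08 and 1.06. All 13 measured neutrophil genes rose, with list medians of 4.97 and 4.64. Of 11 alveolar type 2 genes 9 fell on each diet, of 13 endothelial genes 8 and 7, of 11 fibroblast and smooth muscle genes 6 and 7, and of 8 pericentral hepatocyte genes 7 and 7, with none rising. Of 10 macrophage genes 3 fell, then 2 fell and 2 rose. Of 14 acute phase genes 8 rose and 1 fell on each diet. Periportal genes fell in 2 and 3 of 7 cases and rose in none and 1, liver-enriched factors fell in 4 and 3 of 10 and rose in 2 and 3, and clock-output factors fell in 4 and 3 of 5. Of 7 sensors and partners 2 fell and 1 rose, then 1 and 1, and of 5 AhR targets 2 and 1 fell. The part of these lists in the P450 changes was not tested.

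The injection effect, averaged over diets, was tested for a difference between lung and liver in a joint fit of all 24 arrays. This fit took the arrays as independent, and whether liver and lung arrays came from the same mice was not examined. Of 27 shared genes 22 differed, 81.5% against 60.5% of 10365 genes (29.7% higher, 30.8% lower in lung), 19 with a lower and 3 with a higher change in lung, and their median difference was -0.90. Cyp2c37 changed by -2.19 in lung and -0.08 in liver, a difference of -2.11 ± 0.36 (adjusted p = 5.7e-05), and Cyp2e1 by -1.55 and 0.04. The opposite held for Cyp2c23 (0.20 in lung, -0.78 in liver), Cyp2b10 (-0.69 and -1.45) and Cyp2f2 (-0.08 and -0.71). These 3 differences turned negative under median scaling, at -0.0059, -0.32 and -0.24. Cyp2f2 in lung and Cyp2e1 in liver stood near the top of the intensity scale. Whether this limits their changes in those tissues, and so their differences, was not tested. For Cyp2a5 the changes were -0.73 and -0.48 and the difference of -0.26 ± 0.12 was not called (adjusted p = 0.072).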

How the data were processed

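RNA of 12 liver and 12 lung arrays was measured on Illumina bead arrays of 45281 probes. Per the labels' protocols, biotinylated cRNA was made from 0.55 µg of total RNA. The deposited probe intensity values (94.6 to 71184) are not normalized, as the file header and values show, and come from GenomeStudio 2009.2, per the submitters' processing notes. A deposited detection p-value accompanies each probe, per the file headers. The authors' deposited log2 values match quantile-normalized intensities without background correction, with 3 of 543372 liver pairs further than 0.01 away and none in lung. The median of a deposited log2 column was 7.47 in liver and 7.53 in lung. For other steps, the sources used here give nothing.

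Intensities were corrected by limma 3.58.1 in R 4.3.3 (nec, negative controls inferred from detection p, offset 16), quantile-normalized within tissue and logged. The scanner intensities were preferred to the deposited log2 values, which served as an alternative. Of the probes, 34885 have 1 symbol, 18 have several and 10378 have none; only the first were used, with symbols updated through RefSeq. A gene took its brightest measured probe, chosen without regard to group. lmFit and eBayes compared groups over the 12 arrays of a tissue, and a joint fit of 24 arrays gave the lung and liver difference. Where no array of the dimmer group was above background, "at least N-fold" is the brighter group's mean over that of the dimmer group, each dim array entered at its own value or at the lowest value above background, whichever was higher. The number of arrays limits the precision. On simulated arrays 89% of genes changed by 1 and 38% of those changed by 0.5 on the log2 scale were recovered for injection under control diet in liver, and 88% and 55% in lung (100 genes of each size, among 10904 and 12746 genes). The real arrays called far more genes there, 43.3% in liver and 52.8% in lung. The adjusted p therefore works at another cutoff, and these rates do not give the recovery in the real comparisons. The alternatives were the deposited log2 values, an offset of 50, median scaling, no or a strict detection filter, the mean of a gene's probes, compared groups alone, array weights, the replicate number as a block, each array left out, and in lung a hepatocyte covariate. Genes were named by rule: called members among the 10 highest and 10 lowest changes of a diet or injection comparison (5 and 5 for interactions and for the contrast of tissues), members with the 5 smallest p-values if under 3 were called, the Cyp1 family, members above background on every array of 1 group and none of another, and up to 4 called genes per other list. The members and the 17 lists of other genes (208 genes, 157 measured in liver and 164 in lung) were chosen with earlier results of these data known.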

Additional observations from a re-analysis of the deposited data

Results flagged for a closer look

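The injection effect was unequal in lung and liver for 22 of 27 genes by limma's test in the joint fit of 24 arrays (against 60.5% of all genes). The log2 difference, lung minus liver, was below -1 for Cyp2c37 (-2.11), Cyp2d26 (-2.07), Cyp2c50 (-1.79), Cyp2e1 (-1.59), Cyp2c39 (-1.31), Cyp2c67 (-1.26), Cyp3a25 (-1.14), Cyp2a4 (-1.12), Cyp2c70 (-1.09) and Cyp1b1 (-1.04).

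It lay between -1 and 0 for Cyp2b13 (-0.995), Cyp3a11 (-0.99), Cyp2a12 (-0.95), Cyp2d10 (-0.90), Cyp2b9 (-0.89), Cyp2d9 (-0.85), Cyp2d40 (-0.70), Cyp2j9 (-0.40) and Cyp2d22 (-0.16). It was above 0 for Cyp2b10 (0.76), Cyp2c23 (0.98) and Cyp2f2 (0.62), whose sign turned under median scaling. Adjusted p-values ran from 7.1e-08 (Cyp2f2) to 0.049 (Cyp2d22). Cyp2f2 in lung and Cyp2e1 in liver stood near the top of the intensity scale, and whether this shaped their differences was not tested. Calls were lost without 1 array for Cyp2d22 in 19 of 24 fits, Cyp2b9 in 13, Cyp2c70 in 8, Cyp3a11 in 5 and Cyp2b13 in 1 (sham control-diet lung array 3), with adjusted p up to 0.095. With the mean of a gene's probes all 22 calls were kept, but the differences of Cyp2d26, Cyp2d22 and Cyp2j9 became -0.94, -0.73 and -0.62. Without background correction 11 of the 22 calls were kept, those of Cyp2a12, Cyp2b9, Cyp2b10, Cyp2b13, Cyp2c70, Cyp2d9, Cyp2d10, Cyp2d22, Cyp2d40, Cyp3a11 and Cyp3a25 were lost, and Cyp2b13 stood at 0.14. The differences of Cyp2d9, whose probe was above background on no 4T1 lung array, and of Cyp2a4, Cyp2c39, Cyp2c67 and Cyp2d40, above background on no 4T1 lung array under high-fat diet, are fitted values and not measured sizes. So is that of Cyp1b1, above background on no sham liver array under control diet and on 1 of 3 under high-fat diet.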

How the results depend on the processing

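Counts of called genes moved in the diet comparisons. In sham liver the 7 calls became 4 with array weights and 2 with the compared groups alone. In 4T1 liver the 1 call became 3 on the deposited log2 values, 3 with an offset of 50, 5 with array weights, 4 with the compared groups alone and 0 with the replicate block. In sham lung the 2 calls became 1 without a detection filter, 1 with the replicate block and 4 with the compared groups alone. In lung under high-fat diet 21 injection calls became 12 with the hepatocyte covariate, and the 22 lung and liver differences became 12 without background correction. Leaving out 1 array gave 5 to 7 calls for diet in sham liver, 0 to 3 in 4T1 liver and 1 to 3 in sham lung. For injection it gave 15 to 18 and 13 to 18 in liver, 19 to 24 and 17 to 23 in lung, and 18 to 23 for the lung and liver difference. Signs turned under median scaling in liver under control diet for Cyp2a12 (0.22), Cyp2c23 (0.10), Cyp2c50 (0.18), Cyp2c54 (0.17), Cyp2d10 (0.27), Cyp2d22 (0.091) and Cyp3a25 (0.13). Under high-fat diet they turned for Cyp1a2 (0.12), Cyp2a5 (0.30), Cyp2c50 (0.38), Cyp2c70 (0.23), Cyp2d10 (0.39), Cyp2d22 (0.23) and Cyp2f2 (0.016), and in the lung and liver difference for Cyp2b10 (-0.32), Cyp2c23 (-0.0059) and Cyp2f2 (-0.24). The mean of a gene's probes turned Cyp2c50 (0.055 and 0.22 on the control and high-fat diets), Cyp2d22 (0.016) and Cyp2d26 (-0.24, both high-fat) in liver. Without background correction the lung and liver difference of Cyp2b13 was 0.14. The cause of these turns was not tested. Same-numbered samples of different groups correlated by -0.13 to 0.051 in liver and -0.18 to 0.29 in lung in their deviations from group means. Other pairs correlated by -0.16 to 0.16 and -0.26 to 0.29, so the numbers gave no sign of pairing between the groups of a tissue. Pairing of liver with lung arrays was not examined. The replicate block gave 6, 0, 16 and 15 calls in the liver comparisons of diet (sham, 4T1) and injection (control, high-fat diet). It gave 1, 0, 24 and 24 in lung, and 21 for the difference between tissues. Dim probes near background limit the values of most of these genes in 4T1 lung.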
